A study of Rattus norvegicus with 12 samples.

Results

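The EGF receptor family and its ligands were followed in rat cardiac progenitor cells that had been plated on 3 surfaces or left in suspension. The 9 genes were taken by symbol, whatever their values: the ligand genes Hbegf (Entrez 25433), Areg (29183), Ereg (59325), Tgfa (24827) and Btc (64022), the receptor genes Egfr (24329), Erbb2 (24337) and Erbb3 (29496), and the receptor inhibitor gene Errfi1 (313729). All 9 were found among the 16924 genes of the count files. Of these, 7 passed the filter on low counts, which left 10020 genes for testing, and Btc and Erbb3 did not pass it.

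Cells were sequenced on fibronectin, on laminin, on dishes without coating and in suspension, with 3 libraries in each group. No library of cells before plating was included, so below a gene that fell or rose was lower or higher than in suspension. Which side changed was not tested. Plated cells were seeded sparsely and kept for 2 h in 0.1% serum, and the same protocol text stands beside the suspension libraries without saying how those cells were held, so attachment and any difference in handling cannot be told apart. All groups came from a line that derives from a clone, grown beforehand in 10% serum with basic FGF at 10 ng/mL, LIF, erythropoietin and glutathione, and no EGF receptor ligand is listed among the additives. No strain, sex or age of the source animal is stated. Each replicate number is a labelled batch shared by the 4 groups, and the column names of a batch carry the same date, without saying what that date marks. Replicates are therefore batches of a cloned line and not animals.

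The EGF receptor is a receptor tyrosine kinase at the cell surface. Its ligands are made as membrane-anchored precursors, and metalloproteases of the ADAM family cut them free. Erbb2 has no known ligand of its own and acts as a partner of the other receptors, whereas Erbb3 binds neuregulins and signals mainly through its partners. Errfi1, also called Mig6, is induced by growth factor signalling, binds the kinase domain of the receptors and shuts them down. In the embryonic heart, Hbegf is required for valve formation, and neuregulin signalling through Erbb2 and Erbb4 is required for trabeculation.

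The 250 bases before the annotated start are shown for 4 genes, because Hbegf, Tgfa and Errfi1 fell together on every surface and Areg is a ligand gene that passed in no comparison. The sequences are those of RefSeq on build GRCr8, whose table held 7 of the 9 genes. Hbegf lies at chr18:28390221-28390470 on the minus strand, Tgfa at chr4:120175469-120175718 on the plus strand, Errfi1 at chr5:166606591-166606840 on the plus strand and Areg at chr14:17265642-17265891 on the minus strand. Capitals mark matches on either strand to any of 8 motifs: the AP-1 site TGANTCA, the CRE TGACGTCA, its core TGACG, the TEAD site GGAATG, the EGR site GCGNGGGCG, the ETS core CCGGAA, the CArG box and the TATA box TATAAA.
Hbegf: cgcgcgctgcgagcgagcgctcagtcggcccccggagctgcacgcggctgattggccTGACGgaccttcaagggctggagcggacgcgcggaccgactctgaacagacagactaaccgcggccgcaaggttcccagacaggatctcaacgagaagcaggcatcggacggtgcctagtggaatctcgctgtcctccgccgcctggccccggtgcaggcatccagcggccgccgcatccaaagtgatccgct
Tgfa: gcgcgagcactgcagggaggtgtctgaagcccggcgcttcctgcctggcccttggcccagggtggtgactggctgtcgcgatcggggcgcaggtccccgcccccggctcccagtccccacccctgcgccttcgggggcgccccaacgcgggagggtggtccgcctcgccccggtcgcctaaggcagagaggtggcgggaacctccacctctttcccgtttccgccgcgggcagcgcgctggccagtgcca
Errfi1: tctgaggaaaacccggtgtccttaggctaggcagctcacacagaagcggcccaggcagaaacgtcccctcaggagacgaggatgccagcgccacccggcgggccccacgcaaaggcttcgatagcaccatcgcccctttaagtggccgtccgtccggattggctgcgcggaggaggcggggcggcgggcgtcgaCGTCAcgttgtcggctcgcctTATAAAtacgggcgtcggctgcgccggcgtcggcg
Areg: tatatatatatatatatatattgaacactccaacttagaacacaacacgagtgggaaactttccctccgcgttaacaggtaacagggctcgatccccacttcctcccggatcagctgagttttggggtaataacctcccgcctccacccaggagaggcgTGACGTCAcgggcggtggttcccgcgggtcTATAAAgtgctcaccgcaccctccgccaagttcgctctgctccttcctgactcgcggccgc
The windows of Hbegf and Errfi1 each held the core TGACG, which 19% of 27457 promoters of the same length held. The Tgfa window matched none of the 8 motifs. Errfi1 and Areg also held a TATA box, found in 13.1% of promoters. The full CRE, which contains the core on both strands, was found in the Areg window, as in 1.7% of promoters. Of the 3 windows not printed, that of Egfr held an ETS core and that of Erbb2 a TEAD site, and Btc matched none of the 8 motifs. None of the 4 printed windows matched the AP-1 site, the TEAD site, the EGR site, the ETS core or the CArG box, which occurred in 6.36%, 11.8%, 4.53%, 13.4% and 1.5% of promoters. A match is a run of letters and was not tested as a binding site.

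Total counts lay between 15875160 and 20852160 per library. Of the markers of the labelled cell type, the cardiac transcription factor gene Gata4 averaged 88.4 CPM (the count over the library total, times 1000000) and the stem cell factor receptor gene Kit 3.09 CPM, while Nkx2-5 and Isl1 had 0 counts in all 12 libraries and Tbx5 had 1. The cells expressed the mesenchymal genes Vim and Col1a1 at 5125 and 1165 CPM. Of the same list, Col1a2 and Pdgfra had 429 and 330 CPM, whereas Dcn had 0 counts and Thy1 18 counts over the 12 libraries. Of the 5 blood cell markers, 3 had at least 10 counts, and their sum ran from 56.0 to 63.3 CPM on fibronectin, 58.4 to 65.3 on laminin and 50.7 to 59.3 on uncoated dishes, against 35.8 to 38.4 in suspension. That sum was almost all Cd14, at 49.2 CPM, while the defining leukocyte gene Ptprc had 3 counts over the 12 libraries. The 4 epithelial markers in the files summed to between 317 and 439 CPM over the plated libraries, against 302 to 309 CPM in suspension. Krt8 made up nearly all of that sum, and Epcam had 0 counts. The 6 cardiomyocyte markers, of which Tnnt2 alone had at least 10 counts, summed to between 3.92 and 6.32 CPM over the plated libraries, against 1.57 to 2.05 CPM in suspension, with Myh7 and Myl2 at 0. The 4 smooth muscle markers in the files summed to between 362 and 425 CPM over the plated libraries, against 421 to 527 CPM in suspension. Tagln and Smtn made up most of that sum, at 196 and 204 CPM, while Myh11 had 8.17 CPM and Cnn1 30 counts over the 12 libraries. Of the 5 endothelial markers in the files, Flt1 had 135 CPM and Vwf 1.10 CPM. The others were lower, with 90 counts for Tek, 59 for Pecam1 and 10 for Cdh5 over the 12 libraries. The part of these markers in the results that follow was not tested.

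Hbegf, which encodes the heparin-binding ligand, fell on every surface. On fibronectin it had 25.2, 20.5 and 23.3 CPM in batches 1, 2 and 3, on laminin 10.6, 11.7 and 11.03 CPM, and on uncoated dishes 14.6, 13.2 and 12.7 CPM, against 51.3, 136 and 94.3 CPM in suspension. Every plated library lay below every suspension library, and the suspension libraries differed among themselves by 2.65 times, the plated ones of a group by at most 1.23 times. The fall was 4.003-fold on fibronectin, at -2.001 ± 0.28 on the log2 scale (SE; edgeR quasi-likelihood, Benjamini-Hochberg adjusted p = 0.00142 over all genes tested). It was 8.48-fold on laminin, at -3.08 ± 0.30 (edgeR, adjusted p = 8.14e-05), and 6.91-fold on uncoated dishes, at -2.79 ± 0.29 (edgeR, adjusted p = 0.000168). Suspension 1 was the lowest suspension library, so the ratios within batch 1 were the smallest: -1.01 on fibronectin, -2.23 on laminin and -1.78 on uncoated dishes on the log2 scale. In the other batches they lay between -3.48 and -1.99. In bulk RNA, fewer cells that make a transcript and less of it per cell cannot be told apart.

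Tgfa, the gene of transforming growth factor alpha, also fell on every surface. It had 282, 339 and 348 CPM on fibronectin, 276, 306 and 352 CPM on laminin and 285, 355 and 375 CPM on uncoated dishes, against 475, 792 and 729 CPM in suspension. The lowest suspension library stood above the highest plated one. The changes were -1.01 ± 0.18 on fibronectin, -1.10 ± 0.18 on laminin and -0.96 ± 0.18 on uncoated dishes on the log2 scale (edgeR, adjusted p = 0.00585, 0.00277 and 0.00696), or 2.02-, 2.14- and 1.95-fold lower. Within batches the log2 ratio ran from -1.22 to -0.75 on fibronectin, -1.37 to -0.78 on laminin and -1.15 to -0.74 on uncoated dishes. Unlike Hbegf, the 3 surfaces gave overlapping ranges for this ligand.

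**Figure D1:**
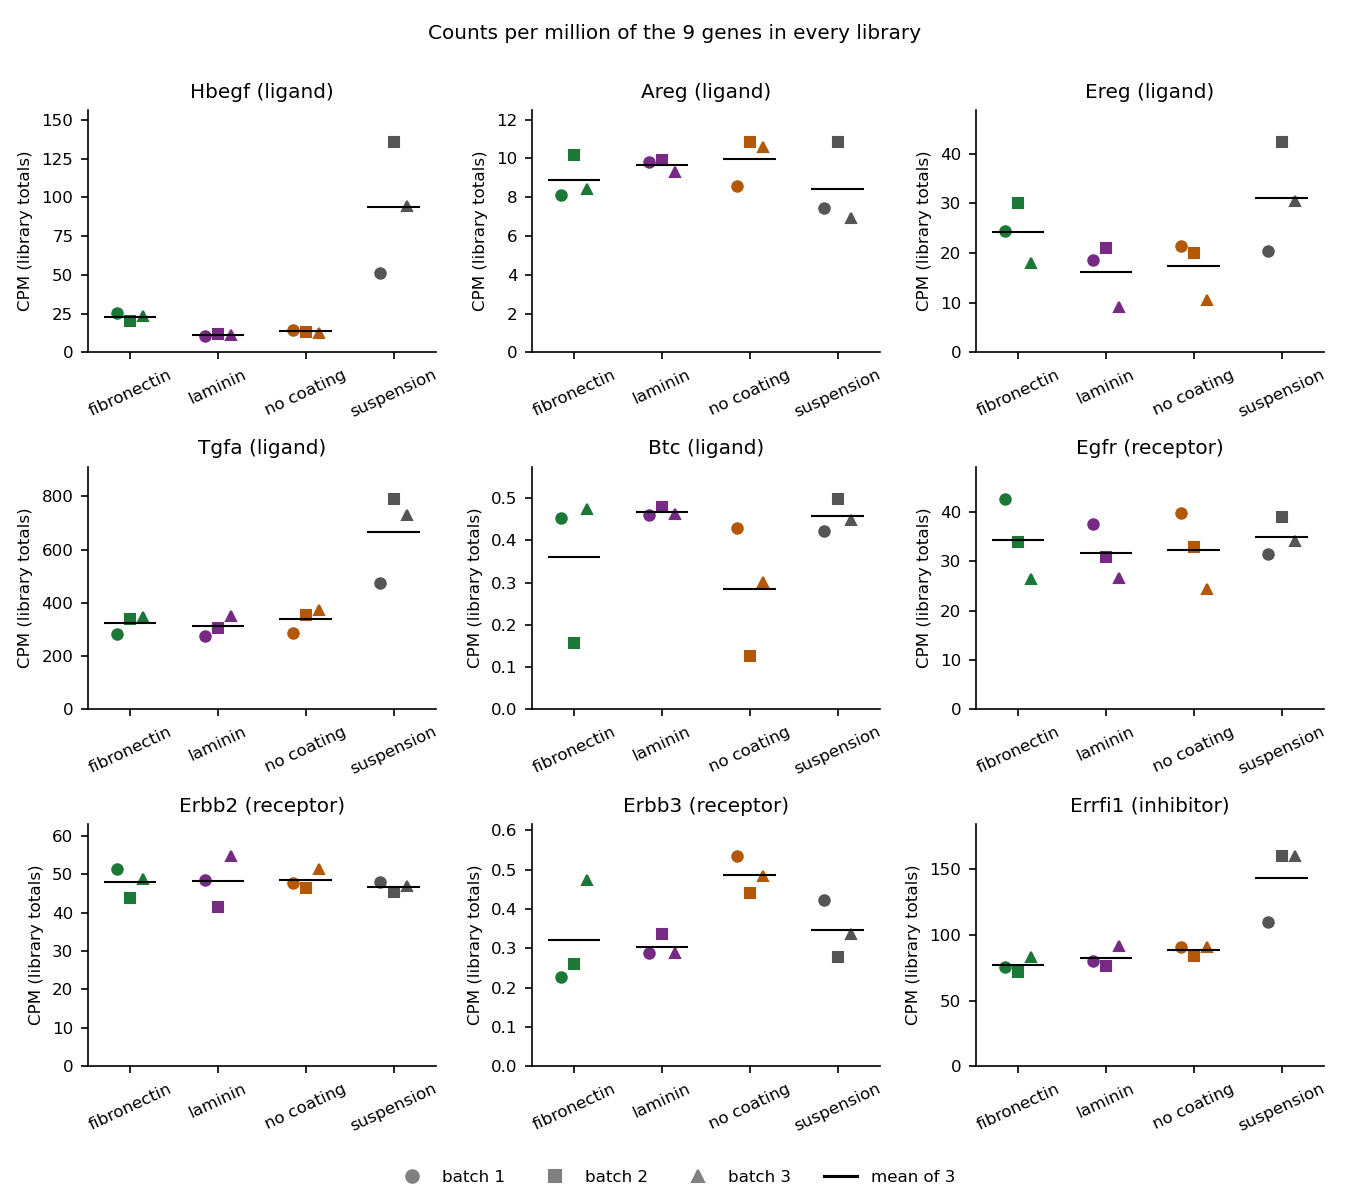
CPM from library totals (y axis, linear from 0, a scale of its own in each panel) for the 9 genes in fibronectin, laminin, no coating and suspension libraries (x axis). Symbols mark batches and lines the mean of 3 libraries: Hbegf, Tgfa and Errfi1 show no overlap between plated and suspension libraries, while Erbb2 stays between 41.5 and 54.8 CPM in all 12.

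Ereg and Areg encode epiregulin and amphiregulin, and with Btc, the betacellulin gene, they are neighbours on chromosome 14 in RefSeq, with Epgn next to Ereg. Ereg had 24.4, 30.0 and 18.1 CPM on fibronectin, 18.6, 21.1 and 9.19 CPM on laminin and 21.5, 20.0 and 10.5 CPM on uncoated dishes, against 20.5, 42.5 and 30.6 CPM in suspension. The groups overlapped, and the replicate 3 library was the lowest of each plated group. Without a batch term Ereg did not pass the test, at -0.34 ± 0.38 on fibronectin, -0.93 ± 0.38 on laminin and -0.83 ± 0.38 on uncoated dishes on the log2 scale (edgeR, adjusted p = 0.588, 0.107 and 0.164). With the replicate number as a block it passed on laminin, at -0.99 ± 0.27 (edgeR, adjusted p = 0.0171), and on uncoated dishes, at -0.86 ± 0.27 (edgeR, adjusted p = 0.0322), but not on fibronectin, at -0.36 ± 0.26 (edgeR, adjusted p = 0.316). The block assumes an equal batch shift in all groups, whereas within batch 1 Ereg had log2 ratios of 0.25 on fibronectin, -0.14 on laminin and 0.07 on uncoated dishes, and in batch 3 of -0.74, -1.68 and -1.50.

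Areg did not pass in any comparison. It had 8.10, 10.2 and 8.42 CPM on fibronectin, 9.83, 9.93 and 9.30 CPM on laminin and 8.57, 10.8 and 10.6 CPM on uncoated dishes, against 7.43, 10.9 and 6.95 CPM in suspension. The groups overlapped, and the log2 change over suspension was 0.11 ± 0.17 on fibronectin, 0.20 ± 0.17 on laminin and 0.26 ± 0.17 on uncoated dishes (edgeR, adjusted p = 0.709, 0.421 and 0.318). The 95% intervals of these changes ran from -0.27 to 0.50, -0.18 to 0.58 and -0.13 to 0.64. Btc had between 2 and 10 counts in a library, and averaged 0.361 ± 0.177 CPM on fibronectin, 0.467 ± 0.011 on laminin and 0.286 ± 0.152 on uncoated dishes, against 0.457 ± 0.039 in suspension (SD, n = 3 each). Every laminin library lay above every uncoated one, on 8 to 10 counts against 2 to 8, where 1.65% of the genes tested did so. Without the filter, the Btc change over suspension was -0.31 ± 0.43 on fibronectin, 0.03 ± 0.41 on laminin and -0.63 ± 0.46 on uncoated dishes, and none passed (edgeR, adjusted p = 0.717, 1 and 0.424).

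The receptor genes showed no change that passed the test. Egfr had 42.7, 34.0 and 26.3 CPM on fibronectin, 37.6, 30.9 and 26.7 CPM on laminin and 39.8, 32.8 and 24.5 CPM on uncoated dishes, against 31.4, 38.9 and 34.1 CPM in suspension. The groups overlapped. In each plated group batch 1 was the highest and batch 3 the lowest, while in suspension batch 1 was the lowest. The log2 change was 0.02 ± 0.23 on fibronectin, -0.13 ± 0.23 on laminin and -0.08 ± 0.23 on uncoated dishes (edgeR, adjusted p = 0.971, 0.694 and 0.817). The log2 ratios within batches pointed to opposite sides of 0. For fibronectin, laminin and uncoated dishes over suspension they were 0.44, 0.26 and 0.34 in batch 1 and -0.37, -0.35 and -0.47 in batch 3.

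Erbb2, the partner receptor, lay between 41.5 and 54.8 CPM in all 12 libraries. It averaged 47.9 ± 3.81 CPM on fibronectin, 48.3 ± 6.67 on laminin and 48.5 ± 2.63 on uncoated dishes, against 46.7 ± 1.25 in suspension (SD, n = 3 each). The changes were 0.07 ± 0.10, 0.05 ± 0.10 and 0.07 ± 0.10 on the log2 scale, with 95% intervals that all lay between -0.17 and 0.29. Erbb3 had between 4 and 10 counts per library, and averaged 0.320 ± 0.134 CPM on fibronectin, 0.304 ± 0.027 on laminin and 0.487 ± 0.048 on uncoated dishes, against 0.345 ± 0.073 in suspension (SD, n = 3 each). Every uncoated library, with 7 to 10 counts, lay above every suspension library, with 5 to 7, and above every laminin library, also with 5 to 7. Of the genes tested, 17.6% had every uncoated library above every suspension library. When the filter was dropped, Btc and Erbb3 passed in none of the 6 comparisons by edgeR, the largest Erbb3 change over suspension being 0.51 ± 0.35 on uncoated dishes (edgeR, adjusted p = 0.474). Erbb4, the receptor gene outside the 9, had 0 counts over the fibronectin libraries, 0 on laminin and 3 on uncoated dishes, against 4 in suspension, where a count of 0 allows up to 3.

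Errfi1, the inhibitor of the receptor kinases, fell with Hbegf and Tgfa. It had 75.9, 72.1 and 83.2 CPM on fibronectin, 80.1, 76.3 and 91.7 CPM on laminin and 90.9, 84.2 and 90.7 CPM on uncoated dishes, against 110, 161 and 160.0 CPM in suspension. All plated libraries lay below all suspension libraries, and suspension 1 was again the lowest of its group. The change was -0.87 ± 0.14 on fibronectin, -0.80 ± 0.14 on laminin and -0.68 ± 0.14 on uncoated dishes on the log2 scale (edgeR, adjusted p = 0.00313, 0.00388 and 0.0108), or 1.82-, 1.74- and 1.60-fold lower. The call on uncoated dishes ended without suspension 3, at -0.60 ± 0.15 (edgeR, adjusted p = 0.0525), and in a fit to those groups alone, at -0.69 ± 0.16 (edgeR, adjusted p = 0.0624).

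**Figure D2:**
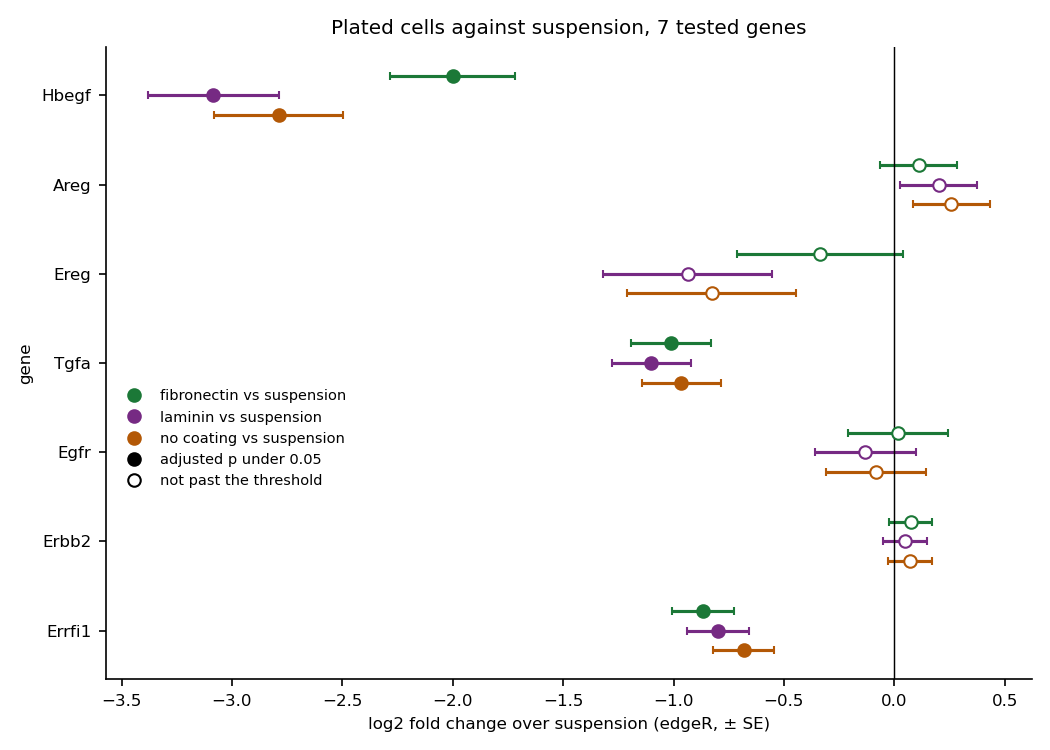
Log2 fold change over suspension (x axis, points with SE bars, edgeR) of the 7 tested genes (y axis) on fibronectin, laminin and uncoated dishes. Filled points passed the threshold: Hbegf between -3.08 and -2.001, Tgfa between -1.10 and -0.96 and Errfi1 between -0.87 and -0.68.

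Against suspension, 3 of the 7 tested genes were thus called lower on each surface and 0 were called higher. Over all genes tested, 3.06% were called lower on fibronectin, 6.96% on laminin and 4.1% on uncoated dishes. With the replicate block 3, 4 and 4 of the 7 were called lower, against 12.1%, 20.8% and 18.7% of all genes. Groups without overlap were common: 24.1% of all genes on fibronectin, 23% on laminin and 23.5% on uncoated dishes had every plated library below every suspension library. The 3 comparisons share their suspension libraries and are not independent of each other. Each SE also pools the spread of all 4 groups. In suspension the SD of log2 CPM was 0.71 for Hbegf, 0.396 for Tgfa and 0.312 for Errfi1, larger than in any plated group. The suspension means are therefore less certain than the pooled spread implies. Without batch 3 the same 3 genes were called on each surface, against 4.95%, 10.3% and 6.81% of all genes called lower. Of all genes, 6.61% were called higher on fibronectin, 12.1% on laminin and 8.48% on uncoated dishes.

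**Figure D3:**
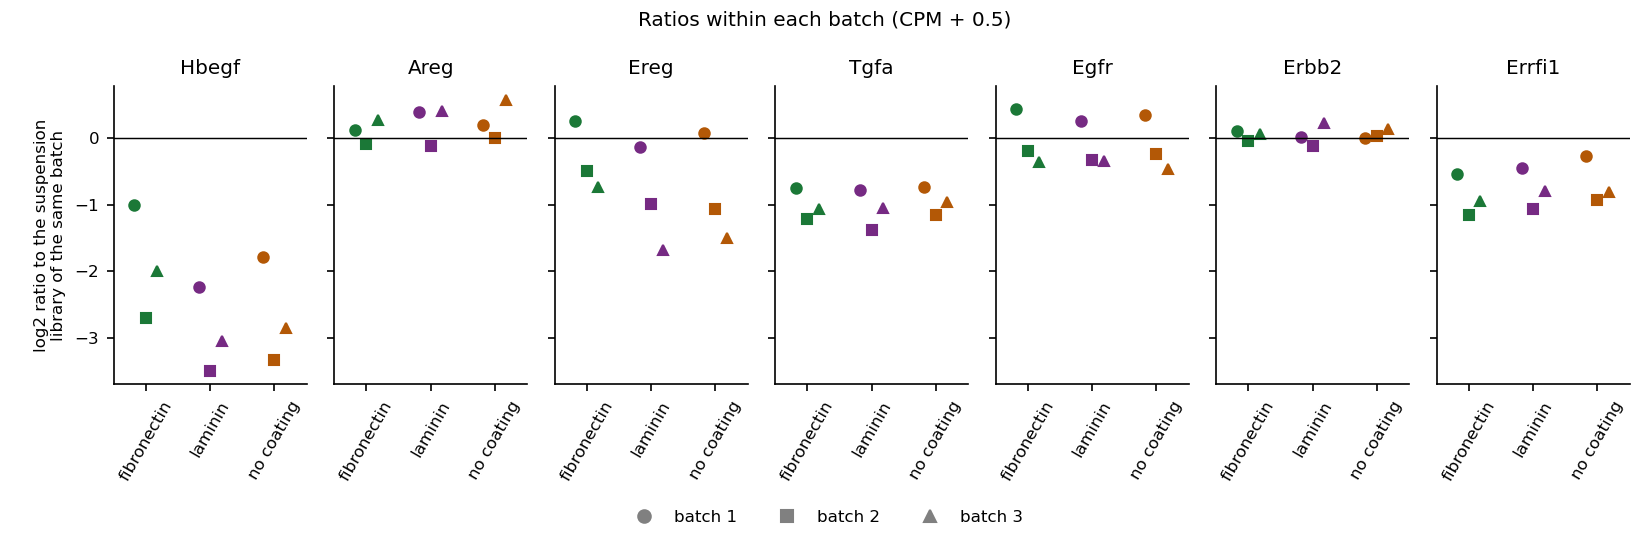
Log2 ratio of CPM plus 0.5 to the suspension library of the same batch (y axis) for the 7 tested genes (panels) on fibronectin, laminin and uncoated dishes (x axis), with symbols for batches. Hbegf, Tgfa and Errfi1 lie below 0 in all 9 ratios each, whereas Egfr lies above 0 in batch 1 and below 0 in batches 2 and 3.

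Between surfaces, Hbegf was the gene of the family that stood apart. It averaged 23.0 ± 2.38 CPM on fibronectin, against 11.1 ± 0.567 CPM on laminin and 13.5 ± 0.984 CPM on uncoated dishes (SD, n = 3 each), and every fibronectin library lay above every laminin and every uncoated one. Fibronectin minus laminin was 1.08 ± 0.29 on the log2 scale, or 2.12-fold higher. The log2 ratios within batches 1, 2 and 3 were 1.21, 0.78 and 1.05. Fibronectin minus no coating was 0.79 ± 0.28 on the log2 scale, or 1.73-fold higher, with log2 ratios of 0.77, 0.62 and 0.85. In the fit to all 12 libraries neither passed after adjustment (edgeR, adjusted p = 0.489 and 0.969; unadjusted p = 0.00307 and 0.0183). That fit shares its estimate of the spread with the suspension group, where the SD of log2 CPM of Hbegf was 0.71, against 0.15 on fibronectin, 0.07 on laminin and 0.10 on uncoated dishes.

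The call for Hbegf between surfaces depended on the libraries in the fit, the tool and the block. In the fit to the fibronectin and laminin libraries alone the difference was 1.07 ± 0.12 and passed (edgeR, adjusted p = 0.0429), and it passed with DESeq2 (adjusted p = 0.0444). In a fit to the plated libraries, chosen after the data were seen, it was 1.08 ± 0.12 (edgeR, adjusted p = 0.0119), and 1.08 ± 0.10 with the replicate block (edgeR, adjusted p = 0.000327). Fibronectin minus no coating passed in the plated libraries with the replicate block, at 0.79 ± 0.09 (edgeR, adjusted p = 0.00179), but not without the block, at 0.79 ± 0.12 (edgeR, adjusted p = 0.0576). Under all 15 alternatives fibronectin minus laminin lay between 0.99 and 1.17, but it passed in only 4 of them. It passed in 0 of the 6 fits that left out 1 library, and not with the block in 12 libraries (edgeR, adjusted p = 0.286). Those 6 fits each left out a fibronectin or laminin library and kept the suspension libraries with their wide spread. They therefore cannot show whether the call rests on 1 plated library. Every fit without suspension libraries passed for fibronectin minus laminin, and of the fits that included suspension only DESeq2 did. Fibronectin minus no coating passed in 1 of 15 alternatives.

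**Figure D4:**
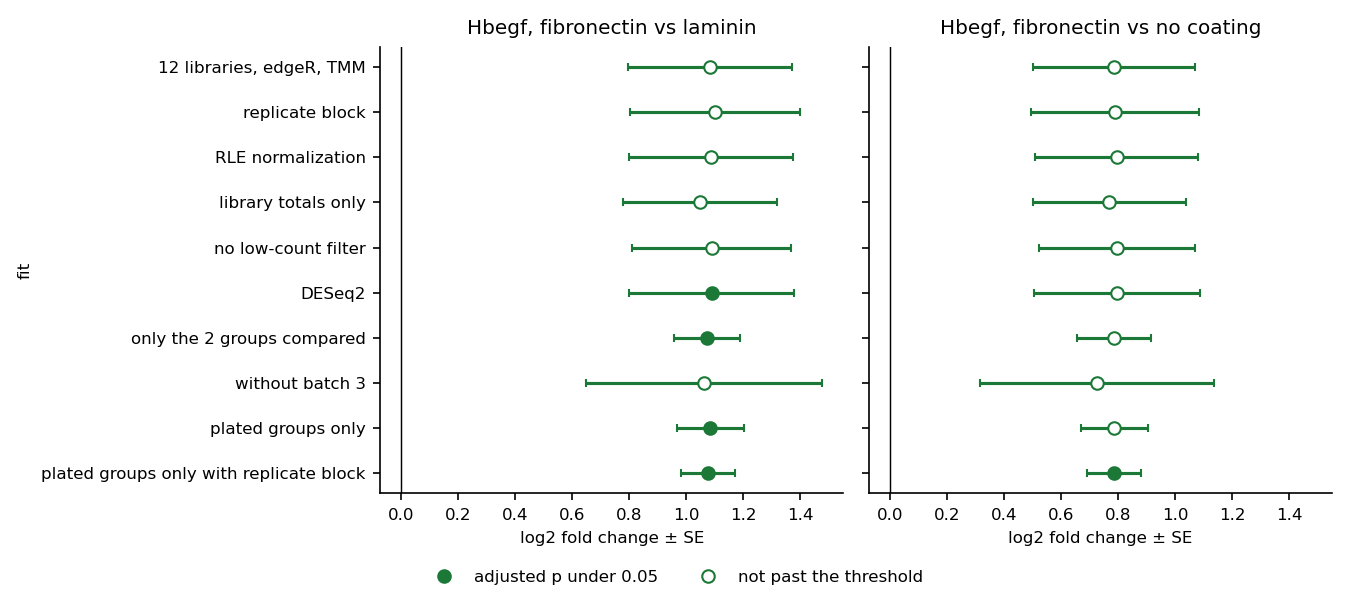
Log2 fold change of Hbegf with SE bars (x axis) for fibronectin over laminin and fibronectin over no coating in 10 fits (y axis). The estimates stay near 1.08 and 0.79 throughout, and filled points passed an adjusted p of 0.05.

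Laminin and uncoated dishes differed less in Hbegf. Every laminin library lay below every uncoated one, and the log2 change of laminin over no coating was -0.30 ± 0.29 (edgeR, adjusted p = 0.9997; unadjusted p = 0.328). Ereg averaged 24.2 ± 5.97 CPM on fibronectin, against 16.3 ± 6.26 CPM on laminin and 17.3 ± 5.96 CPM on uncoated dishes (SD, n = 3 each), with overlap between groups. In each of the 3 batches fibronectin was the highest of the surfaces for Ereg, and fibronectin minus laminin was 0.60 ± 0.38 on the log2 scale (edgeR, adjusted p = 0.9998). It passed in the plated libraries with the replicate block, at 0.63 ± 0.12 (edgeR, adjusted p = 0.0215). Errfi1 was lower in every fibronectin library than in every uncoated one, at -0.18 ± 0.14, and did not pass (edgeR, adjusted p = 1).

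In the fit to all 12 libraries, 0 of the 7 tested genes were called between surfaces by edgeR. The background was low: 0.15% of all genes were called between fibronectin and laminin, 0.18% between fibronectin and no coating, and 0% between laminin and no coating. At an unadjusted p under 0.05 only Hbegf of the 7 differed between fibronectin and laminin and between fibronectin and no coating, and none differed between laminin and no coating. DESeq2 called Hbegf between fibronectin and laminin, and 0 of the members in the other pair of comparisons. Of all genes, 2.66% had every fibronectin library above every laminin one and 2.62% above every uncoated one, 3.34% had every fibronectin library below every uncoated one, as Errfi1 had, and 1.94% had every laminin library below every uncoated one, as Hbegf and Erbb3 had.

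The order of levels for Hbegf was suspension, fibronectin, uncoated dishes, laminin, with no overlap between neighbours in that order. For Tgfa and Errfi1 suspension stood highest, and the ranges of the surfaces overlapped except for Errfi1 on fibronectin and uncoated dishes. For Ereg, suspension and fibronectin overlapped, as did each other pair of groups, and for Areg, Egfr and Erbb2 no group stood clear of the others.

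Genes with the closest patterns over the 12 libraries were sought among 8677 genes for the 3 genes called against suspension, by the root mean square difference of centred log2 CPM. The nearest to Hbegf was Sgk1, a serum- and glucocorticoid-regulated kinase gene, at 0.397, followed by the ephrin gene Efnb2 at 0.488 and the inflammasome sensor gene Nlrp3 at 0.495, where the median gene was at 1.20. Like Hbegf, these had lower means on laminin and uncoated dishes than on fibronectin. Sgk1 had mean levels of 235, 139 and 128 CPM on fibronectin, laminin and uncoated dishes, against 607 CPM in suspension. The nearest to Tgfa was Adam19, a metalloprotease gene of the family that cuts ligand precursors, at 0.159, then came Errfi1 itself at 0.179 and the apelin gene Apln at 0.182, against a median of 0.519. Errfi1 was nearest to Spry2, an inhibitor of receptor tyrosine kinase signalling, at 0.106, and Apln was at 0.14, against a median of 0.418. Spry2 had mean levels of 72.6, 72.9 and 73.6 CPM on fibronectin, laminin and uncoated dishes, against 117 CPM in suspension. A gene with no variation would lie at 1.19 from Hbegf, 0.478 from Tgfa and 0.368 from Errfi1, so the medians are near the distance to a flat gene. Libraries of equal replicate number share a batch, each library contributes its depth to every gene, and the distances are given as a description.

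Of 62 other genes of the pathway, listed by role, 54 were found in the files and 50 were tested. The counts of calls in each list stand against the shares of all genes called. With no batch term these were 6.61%, 12.1% and 8.48% higher and 3.06%, 6.96% and 4.1% lower on fibronectin, laminin and uncoated dishes. The block made them 16.6%, 22.4% and 20.1% higher and 12.1%, 20.8% and 18.7% lower. Without batch 3 they were 4.3%, 8.55% and 5.17% higher and 4.95%, 10.3% and 6.81% lower. Among the genes listed for the release of the ligands, Adam19 fell and Rhbdf2 rose on every surface. Rhbdf2 encodes an iRhom that escorts the protease ADAM17. Adam19 averaged 93.2 ± 5.72 CPM on fibronectin, 82.9 ± 10.6 on laminin and 89.8 ± 8.70 on uncoated dishes, against 198 ± 11.4 in suspension (SD, n = 3 each), and its log2 changes were -1.05 ± 0.10, -1.26 ± 0.10 and -1.13 ± 0.10 (edgeR, adjusted p = 7.56e-05, 1.59e-05 and 4.12e-05). Rhbdf2 averaged 36.4 ± 2.30 CPM on fibronectin, 42.5 ± 3.12 on laminin and 45.2 ± 1.48 on uncoated dishes, against 28.1 ± 0.276 in suspension (SD, n = 3 each), with log2 changes of 0.41 ± 0.07, 0.60 ± 0.07 and 0.70 ± 0.07 (edgeR, adjusted p = 0.00649, 0.000466 and 0.000178). Adam17, the main protease for several of these ligands, did not pass, at -0.15 ± 0.23, -0.16 ± 0.23 and -0.20 ± 0.23. In all, of the 7 tested genes of this list 1 rose and 1 fell on fibronectin, 1 rose and 2 fell on laminin, and 1 rose and 1 fell on uncoated dishes, with medians of -0.15, -0.16 and -0.18 against medians of all genes of 0.00, -0.01 and 0.00. Rhbdf1, the other gene called on laminin, at -0.33 ± 0.10 (edgeR, adjusted p = 0.0435), lost its call under 8 of 13 alternatives, among them leaving out any suspension library, laminin 1 or laminin 2. Without batch 3 the list had 2 up and 2 down on fibronectin, 2 up and 3 down on laminin and 1 up and 2 down on uncoated dishes, Adam9 and Adam10 being the genes added. With the replicate block it had 1 up and 2 down, 2 up and 3 down, and 1 up and 2 down on the same surfaces. Adam10 was among the genes that fell with the block, at -0.767, -0.765 and -0.916 (edgeR, adjusted p = 0.0435, 0.0322 and 0.0189). With no batch term Adam10 did not pass on any surface (edgeR, adjusted p = 0.26, 0.211 and 0.156).

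Downstream of the receptors, the docking protein gene Gab1 rose on every surface, to 207 ± 8.76 CPM on fibronectin, 187 ± 17.0 on laminin and 180 ± 11.8 on uncoated dishes, against 106 ± 11.4 in suspension (SD, n = 3 each). Its log2 changes were 1.01 ± 0.09, 0.82 ± 0.09 and 0.78 ± 0.09 (edgeR, adjusted p = 7.56e-05, 0.000237 and 0.000383). Cblb, a ubiquitin ligase gene of the family that marks active receptors for degradation, rose as well, with log2 changes of 1.21 ± 0.12, 0.86 ± 0.11 and 0.92 ± 0.11 (edgeR, adjusted p = 9.35e-05, 0.000764 and 0.000535). Cblb averaged 76.3 ± 7.60 CPM on fibronectin, 61.2 ± 2.84 on laminin and 63.1 ± 6.14 on uncoated dishes, against 33.9 ± 2.34 in suspension (SD, n = 3 each). The calls of Adam19, Rhbdf2, Gab1 and Cblb held on every surface under all 13 alternatives.

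Most other genes downstream did not pass. With no batch term Gab1 was the call among 18 adaptor and kinase genes on fibronectin and on uncoated dishes. On laminin Map2k2, a MAP kinase kinase gene, rose too, at 0.37 ± 0.10 (edgeR, adjusted p = 0.0283). The call of Map2k2 was lost on leaving out any suspension library, laminin 2 or laminin 3, and with library totals as the only scaling. The medians of that list were 0.02, 0.02 and 0.01. Under the block the list had 2 up and 1 down on fibronectin, 3 up and 4 down on laminin, against 20.8% of all genes called lower there, and 3 up and 3 down on uncoated dishes. With Gab1, Stat3 then rose on every surface, at 0.345, 0.186 and 0.181 (edgeR, adjusted p = 0.00191, 0.0188 and 0.0235). Sos2 then fell on every surface, at -0.496, -0.583 and -0.483 (edgeR, adjusted p = 0.0215, 0.00756 and 0.0188). Neither Stat3 nor Sos2 passed with no batch term. Without batch 3 the list had 1 up, then 2 up and 2 down, then 1 up and 1 down. Cblb was the call among the 12 genes of receptor brakes and degradation on each surface, with medians of 0.00, -0.05 and -0.07, and with the replicate block 1 gene also fell on laminin and 1 on uncoated dishes. Of the other ligand genes, Egf and Nrg1 were tested and did not pass on any surface, Egf having 3.08 ± 0.633 CPM on fibronectin, 2.81 ± 1.002 on laminin and 2.70 ± 1.10 on uncoated dishes, against 3.91 ± 0.592 in suspension (SD, n = 3 each).

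Of 11 tested early target genes of receptor signalling, 2 fell on fibronectin, 2 on laminin and 3 on uncoated dishes, and 0 rose, against 3.06%, 6.96% and 4.1% of all genes called lower and 6.61%, 12.1% and 8.48% called higher, with medians of -0.36, -0.38 and -0.13. The transcription factor gene Egr1 had -2.60 ± 0.39, -2.41 ± 0.38 and -2.05 ± 0.38 on the log2 scale (edgeR, adjusted p = 0.00196, 0.00225 and 0.00645), and Spry2 had -0.66 ± 0.14, -0.69 ± 0.14 and -0.66 ± 0.14 (edgeR, adjusted p = 0.0125, 0.00724 and 0.0111). Egr1 had 15.9, 12.5 and 11.5 CPM on fibronectin, 19.1, 12.4 and 15.3 CPM on laminin and 27.1, 15.5 and 16.5 CPM on uncoated dishes, against 38.1, 106 and 103 CPM in suspension. Like Hbegf, Tgfa and Errfi1, it was lowest in suspension 1 within its group. With the replicate block 1 rose and 2 fell on fibronectin, 1 rose and 4 fell on laminin, and 1 rose and 3 fell on uncoated dishes, against 12.1%, 20.8% and 18.7% of all genes called lower. Without batch 3 the counts that fell were 1, 2 and 1, as Spry2 on fibronectin and uncoated dishes and the phosphatase gene Dusp6 on uncoated dishes no longer passed. The call of Spry2 also ended on fibronectin without suspension 2, suspension 3, fibronectin 1 or fibronectin 3. On uncoated dishes it also ended without suspension 3 and in a fit to those groups alone. The call of Dusp6 on uncoated dishes, at -0.79 ± 0.23 (edgeR, adjusted p = 0.0489), ended without suspension 2, suspension 3 or any library of the uncoated dishes. It also ended without the filter on low counts and in a fit to those groups alone. In batch 1 Dusp6 had 231 CPM on uncoated dishes and 233 CPM in suspension. The same groups had 206 and 462 CPM in batch 2, and 174 and 374 CPM in batch 3.

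**Figure D5:**
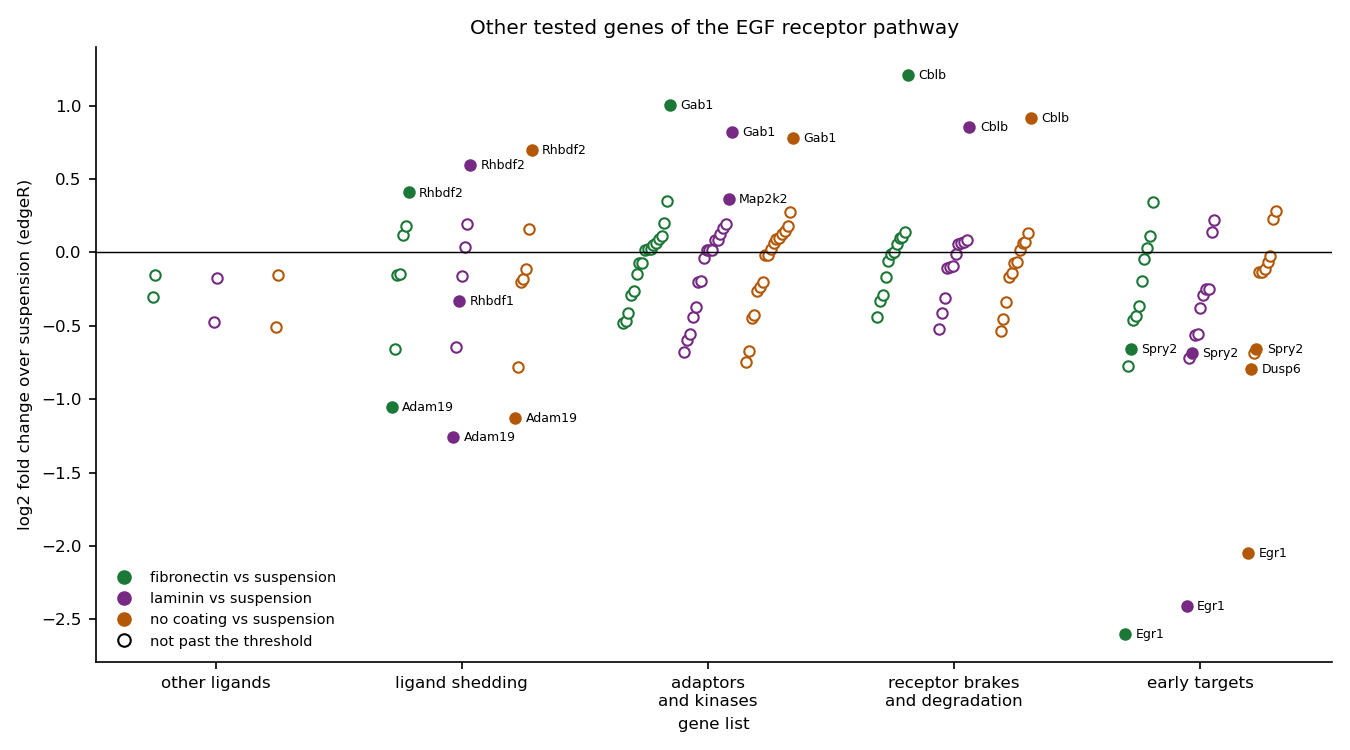
Log2 fold change over suspension (y axis, edgeR) of the 50 other tested pathway genes in 5 lists (x axis) on fibronectin, laminin and uncoated dishes, with 1 point per gene, ordered by value within a list. Filled, named points passed the threshold: Adam19 and Egr1 lie below 0 and Rhbdf2, Gab1 and Cblb above 0 on each surface.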

How the data were processed

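RNA of 12 libraries was sequenced, from a stranded total RNA kit (per the labels' protocols). Each deposited file holds raw read counts for Entrez genes. The submitters' processing notes name rn4 as the genome build. Which aligner, counter and strand setting made the counts was not given in the sources used here. Symbols came from RefSeq (GRCr8), which matched 16761 of 16924 identifiers. CPM was computed from library totals. Tests used edgeR 4.0.16 in R 4.3.3: filterByExpr on the 4 groups, TMM factors from 0.962 to 1.03, glmQLFit and glmQLFTest with group means and no batch term, Benjamini-Hochberg adjustment over 10020 genes and a threshold of 0.05. DESeq2 1.42.0 was an alternative. SE is the absolute log2 change over the root of the F statistic. The steps were tested on simulated data with no batch shift and the same spread in every group. That simulation therefore does not cover the shared batches or the wider spread in suspension.

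Same-numbered libraries carry the same batch label and are therefore paired. As a check, deviations from each group's mean, across genes, had a median correlation of 0.409 over 18 pairs of equal batch and -0.124 over 36 other pairs. The 9 pairs of equal batch between plated libraries had a median of 0.675 and a minimum of 0.514. The minimum over all 18 was 0.036, in a pair with a suspension library, so the batch shift was shared less evenly with suspension. The medians are tied to each other, because deviations within a group cancel out. A second fit took the batch as a block. The design text calls the replicates biological, and p-values measure the spread between batches of this line.

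The members, lists, motifs and tests were chosen with earlier results of these data known. All 9 members were named. Other pathway genes were named where called in any comparison, with values for at most 4 per list and comparison, and so were, for each of Hbegf, Tgfa and Errfi1, the 3 genes of closest pattern with mean log2 CPM of at least 2, of which 1 for Errfi1 is not reported here. Adam17, Egf, Nrg1, Erbb4, Adam9, Adam10, Stat3 and Sos2 were named beyond that rule, after their values were seen. Levels were not compared between genes, since transcript lengths were not used here.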

Additional observations from a re-analysis of the deposited data

How the results depend on the processing

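The direction and call of Hbegf and Tgfa on every surface, and of Errfi1 on fibronectin and laminin, were kept under all 13 alternatives. Errfi1 on uncoated dishes kept its direction in 13 and its call in 11. Some calls kept on uncoated dishes lay close to the threshold. Tgfa had an adjusted p of 0.0498 in a fit to those groups alone (edgeR). Errfi1 had 0.0498 without suspension 2 and 0.0474 without batch 3 (edgeR, adjusted p). Between surfaces, 1 member was called for fibronectin over laminin with DESeq2, 1 in those groups alone, 1 in the plated libraries and 2 there with the replicate block, and 1 for fibronectin over no coating in the plated libraries with the replicate block. The fits to plated libraries were chosen after seeing the data. With the replicate block, calls over all genes numbered 2872 on fibronectin, 4333 on laminin and 3889 on uncoated dishes, against 969, 1905 and 1261 without it, and 41 and 47 for fibronectin over laminin and over no coating, against 15 and 18. Apart from Ereg on laminin and uncoated dishes, the replicate block in 12 libraries changed no call of a member. With library totals as the only scaling, 329 of 713 calls on fibronectin and 417 of 913 on uncoated dishes were lower, against 307 of 969 and 411 of 1261 with TMM. In the groups compared alone, 461 genes were called on uncoated dishes. DESeq2 called 44 and 53 genes for fibronectin over laminin and over no coating. Leaving out 1 library gave 412 to 720 calls on fibronectin, 797 to 1439 on laminin and 537 to 1285 on uncoated dishes.

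Changes of sign occurred in differences that did not pass, and their cause was not tested. With the replicate block Egfr had -0.02333 on fibronectin over suspension and Erbb2 -0.001499 on fibronectin over no coating, where the plated libraries with the block gave -0.0009468. With library totals Egfr had -0.02141 on fibronectin over suspension, and Erbb2 -0.01066 and -0.01872 on fibronectin over laminin and over no coating. Without batch 3 Erbb2 had -0.03727 on laminin over suspension, Egfr 0.0787 on uncoated dishes over suspension, and Areg 0.01117 on laminin over no coating. Leaving out 1 library gave ranges that crossed 0. Over suspension these were -0.01273 to 0.3579 for Areg and -0.1925 to 0.1842 for Egfr on fibronectin, -0.03608 to 0.143 for Erbb2 on laminin, and -0.2776 to 0.09825 for Egfr on uncoated dishes. For fibronectin over laminin they were -0.05955 to 0.3173 for Egfr and -0.06928 to 0.1088 for Erbb2. For fibronectin over no coating they were -0.1454 to 0.02533 for Tgfa, -0.1082 to 0.2929 for Egfr and -0.06889 to 0.06738 for Erbb2. For laminin over no coating they were -0.1451 to 0.01501 for Areg, -0.3796 to 0.183 for Ereg, -0.2313 to 0.1446 for Egfr and -0.108 to 0.07013 for Erbb2. Depth limits Btc and Erbb3, with at most 10 counts in a library.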
